A study of Mus musculus with 3 samples.

Results

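Mouse cortical neurons cultured with a peptide amphiphile carrying the IKVAV signal (IKVAV PA) were compared with the PDL control, which the labels do not spell out. The comparison takes 2 of the study's 3 libraries, 1 for each condition and both labelled repeat 3. The third library, IKVAV PA with the conducting polymer PEDOT-S (IKVAV PA + PEDOT-S), is given beside some values and enters no count made from the 2. All 3 libraries came from wildtype cells of CD1, an outbred mouse stock, and the treatment label names the peptide amphiphile for every library, the control included. The sources used here give no age, no days in culture and no number of animals or wells. Of 54232 genes counted in each file, the 13814 with at least 1 CPM (counts per 1000000 counts of the library) in either library were compared, and no measured value other than this level chose them.

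A peptide amphiphile is a short peptide joined to a fatty tail, which assembles in water into nanofibres that display the peptide on their surface. IKVAV is a motif of the laminin alpha 1 chain, a basement membrane protein on which neurons extend neurites, and cells read laminins mainly through integrins, dystroglycan and the laminin receptor made from Rpsa. Cultures of embryonic or newborn cortex hold neurons together with radial glia, the dividing stem cells of the cortex, and with astrocytes, oligodendrocyte precursors and a few cells of the vessels and meninges, and all of these except the neurons can divide in the dish. The gene families below are therefore given by cell class and by role.

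The IKVAV PA library held 124425958 counts and the PDL library 78993105, with 29909 and 27630 genes detected. Counts were scaled to the library total with TMM factors between 0.990 and 1.01 over the 3 libraries, and levels are given as scaled CPM. With 1 library in each condition there is no measure of spread between cultures and no p-value. Each ratio of IKVAV PA to PDL has an exact 95% binomial interval that covers counting error only. A call of higher or lower needed the whole interval to lie past 1.5-fold. Counts and medians within a list are over the members that reached 1 CPM in either library, not over all members listed. A gene that reached it in 1 library alone had to differ in that direction, which holds for 138 of the lower and 36 of the higher genes. In bulk RNA, fewer cells of a type and less RNA per cell cannot be told apart.

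Most genes lay close to the same level in both libraries, and those beyond the bound were mainly lower in IKVAV PA. By that rule 474 genes (3.43% of those compared) were lower and 74 (0.536%) were higher, which left 96.0% within it. The median log2 ratio over all 13814 genes was 0.000225, with 5th and 95th percentiles of -0.60 and 0.36. The lower genes were weakly expressed, with a median of 4.49 CPM in PDL against 24.2 CPM over all genes compared. Together they summed to 4869 CPM in PDL and 2273 CPM in IKVAV PA. Of the lower genes 467 were protein-coding, against 30 of the higher ones. Protein-coding genes were cut into 5 equal groups by mean level. The lowest group, of 2491 genes, held 342 lower and 23 higher genes, and the highest group held 2 lower and 0 higher. The shares over all genes compared, 3.43% lower and 0.536% higher, are the background for each count of called members below. Lists of weakly expressed genes stand against a larger lower share.

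**Figure D1:**
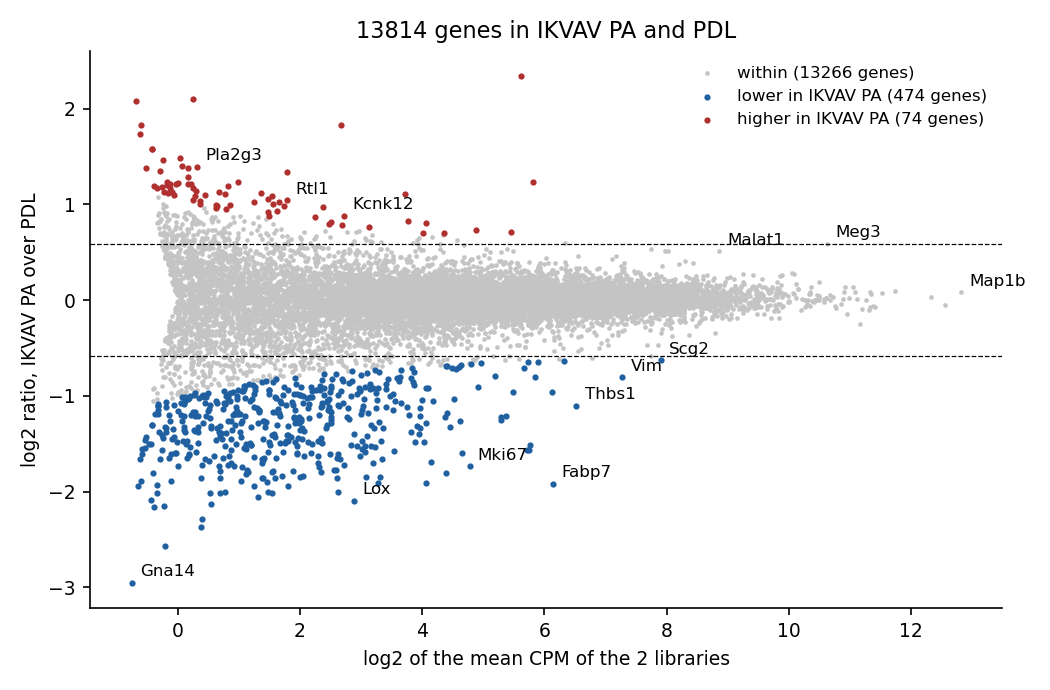
Log2 ratio of IKVAV PA over PDL (y axis) against the log2 of the mean CPM of both libraries (x axis), 1 point for each of the 13814 genes; dashed lines mark 1.5-fold, and colours mark genes whose 95% counting interval lies wholly beyond it. The 474 lower genes lie mostly at low mean levels, while abundant neuronal genes such as Map1b lie near 0.

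By the interval bound nearest to no difference, the lowest named coding genes came from several cell classes. Gna14, a G protein alpha subunit, had 17 counts in IKVAV PA and 84 in PDL, which is 7.73-fold lower by scaled counts (log2 ratio -2.95, 95% counting interval -3.80 to -2.19). Ctsc, a lysosomal protease, had 0.249 CPM in IKVAV PA and 1.48 CPM in PDL, and Akr1c14, a steroid-metabolising reductase, had 0.425 CPM in IKVAV PA and 2.20 CPM in PDL. Among better-counted genes, Fabp7, the fatty acid binding protein of radial glia (ENSMUSG00000019874, chr10:57784881-57788450, mm10), had 29.5 CPM in IKVAV PA and 112 CPM in PDL (log2 ratio -1.92, 95% counting interval -1.97 to -1.86). Kcnj10, the inward rectifier potassium channel of astrocytes, had 4.07 CPM in IKVAV PA and 15.3 CPM in PDL, and Olig1, which specifies oligodendrocytes, had 7.04 CPM in IKVAV PA and 26.5 CPM in PDL. All 6 were picked from the genes already called lower, so their calls add nothing to that choice. Gna14, Ctsc and Akr1c14 reached 1 CPM in PDL alone, so they had to be lower.

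Among the cell division lists, the mitotic one was the most uniformly lower. Of 45 genes of the mitotic spindle and chromosome segregation, all 45 had a lower level in IKVAV PA, 36 were called lower (against 3.43% of all genes compared) and none higher, with a median log2 ratio of -1.25. Mki67, the standard marker of cycling cells (ENSMUSG00000031004, chr7:135689784-135716361), had 12.7 CPM in IKVAV PA and 42.1 CPM in PDL, which is 3.32-fold lower (log2 ratio -1.73, 95% counting interval -1.82 to -1.65). Top2a, which untangles chromosomes before they separate, had 12.5 CPM in IKVAV PA and 37.8 CPM in PDL, and Bub1b, of the spindle checkpoint, had 1.81 CPM in IKVAV PA and 6.46 CPM in PDL. Ndc80 and Knl1, both of the kinetochore, had log2 ratios of -2.004 and -1.84. Cyclins, their kinases and cell cycle transcription factors followed, with 11 of 22 lower and a median of -0.87: Ccnb1, the mitotic cyclin, had 2.29 CPM in IKVAV PA and 7.67 CPM in PDL, and its kinase Cdk1 had 2.39 CPM in IKVAV PA and 6.78 CPM in PDL. Ccnd2, a cyclin of the first gap phase that neural progenitors express, had 47.6 CPM in IKVAV PA and 92.4 CPM in PDL (log2 ratio -0.96, 95% counting interval -1.01 to -0.91). E2f1 was at 12.8 CPM in IKVAV PA and 11.9 in PDL and was not called.

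DNA replication genes were lower by less. Of 34 measured, 6 were called lower (against 3.43% of all genes compared), 32 had a negative log2 ratio and the median was -0.37. Those called were the helicase loader Cdc6, the helicase subunits Mcm2, Mcm3 and Mcm5, the replication factor Mcm10, and Uhrf1, which carries DNA methylation through replication (3.85 CPM in IKVAV PA and 11.9 CPM in PDL). With libraries thinned to the smaller total 8 of 34 were called lower, Rrm2 and Tyms being added. Pcna, the sliding clamp, had 28.7 CPM in IKVAV PA and 35.1 CPM in PDL, and Dnmt1, which neurons also express, had 158 CPM in IKVAV PA and 157 CPM in PDL. Among 7 replication-dependent histones measured (67 listed) none was called, 5 had negative log2 ratios and the median was -0.10. Of the 9 CDK inhibitors and pocket proteins measured, Cdkn2b (log2 ratio -1.89) and Cdkn2c (-1.65) were lower, while Cdkn1b, the inhibitor abundant in neurons, was at 147 and 175 CPM and was not called. Of the 35 kinesins measured, the 8 called lower were all motors of the mitotic spindle or midzone, among them Kif11 (5.27 CPM in IKVAV PA and 13.4 CPM in PDL). Axonal kinesins did not share this: Kif1a had 2237 CPM in IKVAV PA and 2222 CPM in PDL and Kif5c 1426 CPM in IKVAV PA and 1426 CPM in PDL.

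The promoters of 4 mitotic genes are shown as a description of their sequence. Mitotic promoters are known for CCAAT boxes, bound by NF-Y, and for the cell cycle genes homology region (CHR; TTTGAA or TTCGAA), through which the DREAM and MuvB complexes act. The windows are RefSeq promoters of GRCm38.p6, each of 300 bases, from 250 before to 50 after a gene's start, read on the gene's strand from 5′ to 3′, with CCAAT and the CHR letters on either strand in capitals (the reverse complement is ATTGG for the former and TTCAAA for TTTGAA, and TTCGAA is its own). They belong to the 4 called genes of the list with the bound farthest from no difference that had a single window with both kinds of element. Mki67 lies at chr7:135716330-135716629 on the minus strand, Bub1b at chr2:118597961-118598260 on the plus strand, Hmmr at chr11:40733388-40733687 on the minus strand and Cenpa at chr5:30666636-30666935 on the plus strand.
Mki67: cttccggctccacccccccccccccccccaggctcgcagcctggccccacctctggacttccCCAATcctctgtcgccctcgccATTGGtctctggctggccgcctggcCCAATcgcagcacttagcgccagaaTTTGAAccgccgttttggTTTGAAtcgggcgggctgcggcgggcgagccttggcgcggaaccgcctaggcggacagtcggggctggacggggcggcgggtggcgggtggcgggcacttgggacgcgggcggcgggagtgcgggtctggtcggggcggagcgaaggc
Bub1b: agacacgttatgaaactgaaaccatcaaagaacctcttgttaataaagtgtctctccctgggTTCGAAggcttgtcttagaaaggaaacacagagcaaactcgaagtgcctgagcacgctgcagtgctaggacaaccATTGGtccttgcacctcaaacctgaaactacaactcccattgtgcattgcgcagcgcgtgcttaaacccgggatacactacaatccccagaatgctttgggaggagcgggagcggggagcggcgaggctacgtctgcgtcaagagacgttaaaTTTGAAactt
Hmmr: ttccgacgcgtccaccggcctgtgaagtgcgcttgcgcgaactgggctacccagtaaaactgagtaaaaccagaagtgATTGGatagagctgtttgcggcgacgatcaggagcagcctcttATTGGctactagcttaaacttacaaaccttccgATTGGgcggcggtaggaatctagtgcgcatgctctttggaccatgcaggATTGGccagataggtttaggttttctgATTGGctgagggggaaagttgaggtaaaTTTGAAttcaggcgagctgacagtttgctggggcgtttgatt
Cenpa: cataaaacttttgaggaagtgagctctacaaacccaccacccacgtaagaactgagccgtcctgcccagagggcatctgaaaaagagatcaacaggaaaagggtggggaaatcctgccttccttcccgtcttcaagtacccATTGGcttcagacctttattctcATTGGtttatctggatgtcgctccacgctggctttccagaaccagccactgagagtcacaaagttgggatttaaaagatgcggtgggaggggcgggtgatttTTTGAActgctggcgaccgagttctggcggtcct

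A window was available for 39 of the 45 mitotic genes and for 9815 of 12451 protein-coding symbols compared, and a gene with several windows was counted once if any held the element. TTTGAA or TTCGAA stood in 82.1% of the mitotic genes with a window (32 of 39), against 15.7% of all protein-coding genes with one. CCAAT stood in 69.2% (27 of 39) against 43.2%, and both kinds in 66.7% against 6.65%. The list was assembled from known mitotic genes, a class known for these elements, so these shares are not independent of its making. Among mitotic genes called lower the CHR letters stood in 78.1% (25 of 32), and in 7 of 7 of those within the bound, so the element did not separate the called from the uncalled members. In the 28 replication genes with a window CCAAT stood in 64.3%, and TTTGAA or TTCGAA in 21.4%. These are matches of letters and not measured binding.

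Radial glia markers all had lower levels in IKVAV PA, and markers of neuronal precursors were mixed. All 14 measured radial glia markers had a lower level in IKVAV PA and 8 were called (against 3.43% of all genes compared), with a median log2 ratio of -0.77. Nes, an intermediate filament of neural stem cells, had 27.3 CPM in IKVAV PA and 80.8 CPM in PDL (log2 ratio -1.56, 95% counting interval -1.63 to -1.50), Vim, the filament of glia and mesenchyme, had 113 CPM in IKVAV PA and 198 CPM in PDL, and Slc1a3, a glutamate transporter of radial glia and astrocytes, had 24.9 CPM in IKVAV PA and 57.8 CPM in PDL. Notch1, the receptor that maintains progenitors, had 8.62 CPM in IKVAV PA and 24.2 CPM in PDL, and Tnc, a matrix glycoprotein of the germinal zone, had 23.6 CPM in IKVAV PA and 54.9 CPM in PDL. Sox2 (28.7 CPM in IKVAV PA and 36.4 CPM in PDL) and Pax6 (4.41 CPM in IKVAV PA and 6.97 CPM in PDL) were at lower levels without passing the bound. The 10 markers of intermediate progenitors, the neuron-producing daughters of radial glia, had a median of -0.00049: Neurog2, Neurod1 and Dll1 had log2 ratios of 0.015, 0.0055 and -0.0064, Insm1 had 22.4 CPM in IKVAV PA and 17.7 CPM in PDL, and Btg2, Mfng and Gadd45g were called lower. These 3 of 10, against 3.43% of all genes compared, brought the mean log2 ratio of the list to -0.25, and Mfng lost its call with libraries thinned to the smaller total. With a 2-fold bound no intermediate progenitor marker was called, nor with an assumed biological coefficient of variation of 0.2.

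Most astrocyte markers were lower, and some abundant ones were level. Of 21 measured (24 listed), 13 were called lower, against 3.43% of all genes compared, and the median was -0.75. Aldh1l1, a folate enzyme used as a marker of astrocytes, had 3.67 CPM in IKVAV PA and 13.2 CPM in PDL (log2 ratio -1.85, 95% counting interval -2.01 to -1.69), Aldoc had 2.64 CPM in IKVAV PA and 9.58 CPM in PDL, and Gja1, the main astrocyte connexin, had 5.17 CPM in IKVAV PA and 12.8 CPM in PDL. Some abundant genes on the list were level: Glul had 91.6 CPM in IKVAV PA and 95.2 CPM in PDL, Cst3 91.03 CPM in IKVAV PA and 97.9 CPM in PDL and Atp1b2 114 CPM in IKVAV PA and 109.6 CPM in PDL. Slc1a3, given above and also on this list, was lower. Among the 19 members that reached 5 CPM in either library the median was again -0.75. The summed level of the list was 728 CPM in IKVAV PA against 845 CPM in PDL, a smaller gap than its median. Gfap was under 1 CPM in both libraries, with 62 counts in IKVAV PA and 32 in PDL.

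The oligodendrocyte lineage did not move as one. Precursor genes were lower, with 5 of 9 measured (12 listed) called, against 3.43% of all genes compared, and a median of -1.20. Olig2 had 4.32 CPM in IKVAV PA and 15.6 CPM in PDL, Pdgfra, the growth factor receptor of precursors, 4.06 CPM in IKVAV PA and 10.7 CPM in PDL, and Cspg4 (NG2) 3.01 CPM in IKVAV PA and 6.92 CPM in PDL. Vcan and Pcdh15 had log2 ratios of 0.17 and -0.15. Among 11 myelin genes measured (20 listed) the median was 0.049, and Mag (2.20 CPM in IKVAV PA and 1.004 CPM in PDL; log2 ratio 1.13, 95% counting interval 0.77 to 1.51) and Mobp (1.72 CPM in IKVAV PA and 0.853 CPM in PDL) were called higher while Bcas1 was called lower (0.497 CPM in IKVAV PA and 1.24 CPM in PDL). With libraries thinned to the smaller total the calls of Mobp and Bcas1 were lost, and with a 2-fold bound no myelin gene was called. In the third library Mag was at 4.10 CPM and Mobp at 4.13, each above both other libraries.

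Few markers of vessels, meninges and immune cells reached the level for comparison. The lower share over all genes compared was 3.43%. Only 3 of 20 microglial markers passed the level for comparison, Itgam and Siglech had 0 counts in both libraries, and no microglial marker was called. Mural cell genes were lower in 3 of 4 measured, of 13 listed (median -1.14), led by Acta2, smooth muscle actin, with 26.4 CPM in IKVAV PA and 78.5 CPM in PDL (log2 ratio -1.57, 95% counting interval -1.63 to -1.51), and by Pdgfrb (2.30 CPM in IKVAV PA and 5.60 CPM in PDL). Of 7 measured meningeal fibroblast genes, of 18 listed, Col1a1 (14.5 CPM in IKVAV PA and 34.95 CPM in PDL) and Col1a2 (3.67 CPM in IKVAV PA and 7.48 CPM in PDL) were lower and all 7 had negative log2 ratios. With an assumed biological coefficient of variation of 0.2 no meningeal gene was called. Of 4 measured endothelial genes only Kdr was called, at 1.93 and 3.71 CPM. Erythroid and Hox genes gave no member above 1 CPM.

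Extracellular matrix lists held many lower members and no higher one. Among 33 collagen chains measured, of 44 listed, 16 were lower (against 3.43% of all genes compared), none higher, and the median was -0.68. The fibril collagen Col5a2 had 23.01 CPM in IKVAV PA and 54.9 CPM in PDL (log2 ratio -1.26, 95% counting interval -1.32 to -1.19), and the basement membrane chain Col4a5 had 2.67 CPM in IKVAV PA and 9.16 CPM in PDL. Col4a1 and Col4a2, which are made as a pair, differed from each other: Col4a1 had 46.2 CPM in IKVAV PA and 72.5 CPM in PDL and was called lower, whereas Col4a2 had 53.7 CPM in IKVAV PA and 56.9 CPM in PDL and was not. Of 13 measured genes that modify or crosslink collagen, of 18 listed, 6 were lower. Lox, which crosslinks fibrils, had 2.82 CPM in IKVAV PA and 12.04 CPM in PDL (log2 ratio -2.10, 95% counting interval -2.28 to -1.92), and Serpinh1, the collagen chaperone, had 9.33 CPM in IKVAV PA and 32.5 CPM in PDL. P3h3, a collagen hydroxylase, went the other way at 17.4 and 12.6 CPM without passing the bound.

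Other matrix proteins divided between a lower set and an abundant neural set, where 3.43% of all genes compared were lower. Of 22 glycoproteins and matricellular genes 7 were lower, among them Sparc (28.2 CPM in IKVAV PA and 80.3 CPM in PDL), Thbs1, a thrombospondin (58.5 CPM in IKVAV PA and 126 CPM in PDL), and Fbln2 (1.16 CPM in IKVAV PA and 4.67 CPM in PDL). Tnr, a tenascin of perineuronal nets, had 241 CPM in IKVAV PA and 223 CPM in PDL. Of 23 proteoglycans and link proteins 8 were lower, among them Bcan (5.86 CPM in IKVAV PA and 17.5 CPM in PDL), Hspg2, perlecan of basement membranes (15.2 CPM in IKVAV PA and 31.01 CPM in PDL), and Gpc4, a glypican released by astrocytes (20.99 CPM in IKVAV PA and 39.5 CPM in PDL). Agrn (436 CPM in IKVAV PA and 382 CPM in PDL) and Sdc3 (858 CPM in IKVAV PA and 809 CPM in PDL) were among the 3 most abundant members and were not called. Of 11 matrix metalloproteinases and their inhibitors, Mmp14 and Timp3 alone were lower (log2 ratios -1.12 and -1.12).

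Laminin chains and laminin receptors both had mostly negative log2 ratios, and the calls fell among the chains (over all genes compared 3.43% were called lower). Of 9 laminin chains measured, 8 had negative log2 ratios, the median was -0.26 and 4 were lower: Lamb2 (2.96 CPM in IKVAV PA and 9.30 CPM in PDL; log2 ratio -1.65, 95% counting interval -1.84 to -1.47), Lama5 (4.68 CPM in IKVAV PA and 12.5 CPM in PDL), Lama4 (0.955 CPM in IKVAV PA and 2.50 CPM in PDL) and Lamc1 (38.4 CPM in IKVAV PA and 62.9 CPM in PDL). Lama1, the chain that contains the IKVAV motif, had 6.54 CPM in IKVAV PA and 7.86 CPM in PDL (log2 ratio -0.27, 95% counting interval -0.42 to -0.11) and was not called, and Lamb1 had 42.8 CPM in IKVAV PA and 42.3 CPM in PDL. None of the 11 laminin receptors measured was called, although 9 of 11 had negative log2 ratios and the median was -0.36. With libraries thinned to the smaller total 1 of the receptors, Itga6, was called lower. Among members that reached 5 CPM in either library the median was -0.49 for 6 chains and -0.20 for 8 receptors. This reverses the order of the medians over all measured members. The difference between the chains and the receptors was not tested. Itgb1, the beta subunit shared by the laminin-binding integrins, had 76.4 CPM in IKVAV PA and 111 CPM in PDL (log2 ratio -0.54, 95% counting interval -0.58 to -0.49), Itga6 had 15.4 CPM in IKVAV PA and 24.3 CPM in PDL and Itga3 had 36.1 CPM in IKVAV PA and 39.3 CPM in PDL. Dag1, dystroglycan, had 209 CPM in IKVAV PA and 223 CPM in PDL, and Rpsa had 435 CPM in IKVAV PA and 435 CPM in PDL (log2 ratio 0.00066, 95% counting interval -0.019 to 0.020). The integrins called lower were those that bind fibronectin and vitronectin: Itga5 (1.139 CPM in IKVAV PA and 3.23 CPM in PDL), Itgav (10.3 CPM in IKVAV PA and 18.7 CPM in PDL) and Itgb5 (4.13 CPM in IKVAV PA and 9.60 CPM in PDL).

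Genes of the contractile cytoskeleton and of membrane caveolae held lower members beside level ones, where 3.43% of all genes compared were lower. Of 30 actomyosin and focal adhesion genes 11 were lower, among them Myl9 (4.12 CPM in IKVAV PA and 12.1 CPM in PDL), Cnn1 (0.562 CPM in IKVAV PA and 2.03 CPM in PDL) and Msn, moesin (8.31 CPM in IKVAV PA and 26.9 CPM in PDL), while Myh10, the non-muscle myosin of neurons, had 689.9 CPM in IKVAV PA and 702 CPM in PDL and Flna 422 CPM in IKVAV PA and 379.9 CPM in PDL. Of 18 measured caveolar, annexin and S100 genes, of 34 listed, 10 were lower, with a median of -1.04: Anxa2 had 4.29 CPM in IKVAV PA and 13.98 CPM in PDL and Cavin1 5.85 CPM in IKVAV PA and 14.8 CPM in PDL. Among the 8 members that reached 5 CPM in either library the median was -0.49, inside 1.5-fold. Cav1, which forms caveolae with the cavins, was among the 2 members with positive log2 ratios, at 34.05 and 28.3 CPM.

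The YAP and TEAD pathway, which reads cell spreading and matrix stiffness, had lower members both at its core and among its targets. Of 16 genes measured 8 were called lower (against 3.43% of all genes compared), none higher, and the median was -0.86. The coactivators Yap1 (3.48 CPM in IKVAV PA and 7.76 CPM in PDL) and Wwtr1, or TAZ (3.06 CPM in IKVAV PA and 9.29 CPM in PDL), the DNA-binding factor Tead2 (2.68 CPM in IKVAV PA and 7.49 CPM in PDL) and the targets Ccn1 (12.4 CPM in IKVAV PA and 29.00 CPM in PDL), Ccn2 (7.18 CPM in IKVAV PA and 15.9 CPM in PDL) and Axl (1.997 CPM in IKVAV PA and 5.75 CPM in PDL) were all among them. The upstream kinase Lats1 and the adaptor Amotl2 were level, with log2 ratios of 0.034 and 0.16. GGAATG, the letters TEAD factors recognise, stood in 69.2% of the list's promoters (9 of 13 with a window) against 14.3% of all protein-coding genes; the list was assembled from known pathway genes and targets, so this share is not independent of its making. Ajuba, a LIM protein that restrains Lats kinases, had the steepest ratio of the list (1.17 CPM in IKVAV PA and 4.37 CPM in PDL). Of the called genes with a single window and at least 2 matches, it had the bound farthest from no difference. Its matches were thus required by the choice. The promoter of Ajuba is shown with GGAATG or its reverse complement CATTCC in capitals (GRCm38.p6, chr14:54577612-54577911, minus strand).
Ajuba: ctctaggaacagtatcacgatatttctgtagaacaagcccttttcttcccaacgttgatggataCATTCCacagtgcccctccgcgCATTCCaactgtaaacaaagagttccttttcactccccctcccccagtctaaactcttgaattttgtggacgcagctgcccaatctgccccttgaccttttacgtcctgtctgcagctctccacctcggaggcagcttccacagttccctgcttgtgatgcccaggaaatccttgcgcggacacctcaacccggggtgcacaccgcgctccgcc

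Signalling families held a few lower members each, where 3.43% of all genes compared were lower. In the Notch pathway 4 of 18 were lower: the receptors Notch1 and Notch3 and the glycosyltransferases Lfng (1.30 CPM in IKVAV PA and 4.51 CPM in PDL) and Mfng that modify them, while the ligands Dll1 and Jag2 had log2 ratios of -0.0064 and 0.24. In the BMP pathway 3 of 18 were lower: the ligands Bmp6 and Bmp7 and the target Id3 (0.441 CPM in IKVAV PA and 1.38 CPM in PDL), while Id2 (153 CPM in IKVAV PA and 143 CPM in PDL) and Id4 (68.6 CPM in IKVAV PA and 68.2 CPM in PDL) were level. Id1 was not called by this rule but was called lower with libraries thinned to the smaller total, which gave 4 of 18. In the TGF-beta pathway 5 of 13 were lower, among them the ligand Tgfb1 and the receptor Tgfbr2 (1.04 CPM in IKVAV PA and 2.30 CPM in PDL). With an assumed biological coefficient of variation of 0.2 no TGF-beta gene was called. Smad3, which carries the signal to the nucleus, was level at 17.04 and 17.2 CPM. In the Hedgehog pathway 3 of 11 were lower, the co-receptor Gas1 (log2 ratio -0.77) among them, which lost its call with thinned libraries. Gli2 (log2 ratio -1.41) and Gli3 (-1.44), the Hedgehog transcription factors, were lower, and the receptor Ptch1, itself a target, was at -0.11.

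Growth factor receptors differed within families. All 18 FGF receptor and ERK feedback genes had negative log2 ratios, 6 were called lower (against 3.43% of all genes compared) and the median was -0.45. The ETS factors Etv4 (2.33 CPM in IKVAV PA and 5.89 CPM in PDL) and Etv5 (41.4 CPM in IKVAV PA and 64.8 CPM in PDL) and the feedback inhibitor Spry4 (16.3 CPM in IKVAV PA and 26.3 CPM in PDL) were among those called. With libraries thinned to the smaller total 4 of the 18 were called, without Etv5. With a 2-fold bound 2 of the 18 were called, and with an assumed biological coefficient of variation of 0.2 none was. Among EGF and PDGF genes, Erbb2 (0.570 CPM in IKVAV PA and 2.31 CPM in PDL; log2 ratio -2.02, 95% counting interval -2.44 to -1.62), Egfr (13.03 CPM in IKVAV PA and 29.5 CPM in PDL), Pdgfra and Pdgfrb were lower, whereas Erbb4, the neuregulin receptor of interneurons, had 278 CPM in IKVAV PA and 288 CPM in PDL. Of 14 genes of the insulin-like growth factor system Igfbp2 alone was called (62.7 CPM in IKVAV PA and 97.6 CPM in PDL), against 3.43% of all genes compared.

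Such splits recurred between paralogues, where 3.43% of all genes compared were lower. Among 13 Sox factors the group B and E members of progenitors and glia Sox21 (1.39 CPM in IKVAV PA and 4.18 CPM in PDL), Sox8, Sox3 and Sox9 (9.52 CPM in IKVAV PA and 15.8 CPM in PDL) were lower, while Sox4 (334 CPM in IKVAV PA and 257 CPM in PDL) and Sox11 (1005 CPM in IKVAV PA and 845 CPM in PDL), the group C factors of newborn neurons, had log2 ratios of 0.38 and 0.25. Among connexins and pannexins Gja1 was lower, while Gjd2, the neuronal connexin, had 14.8 CPM in IKVAV PA and 14.7 CPM in PDL. Among 13 tubulins Tubb6 alone was lower (5.84 CPM in IKVAV PA and 10.99 CPM in PDL), while Tubb3, the neuronal isotype, had 2030.2 CPM in IKVAV PA and 1842 CPM in PDL. Of the Tweety genes Ttyh2 (0.449 CPM in IKVAV PA and 2.20 CPM in PDL; log2 ratio -2.29, 95% counting interval -2.75 to -1.85) was lower and Ttyh3 (669 CPM in IKVAV PA and 633 CPM in PDL) was not.

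**Figure D2:**
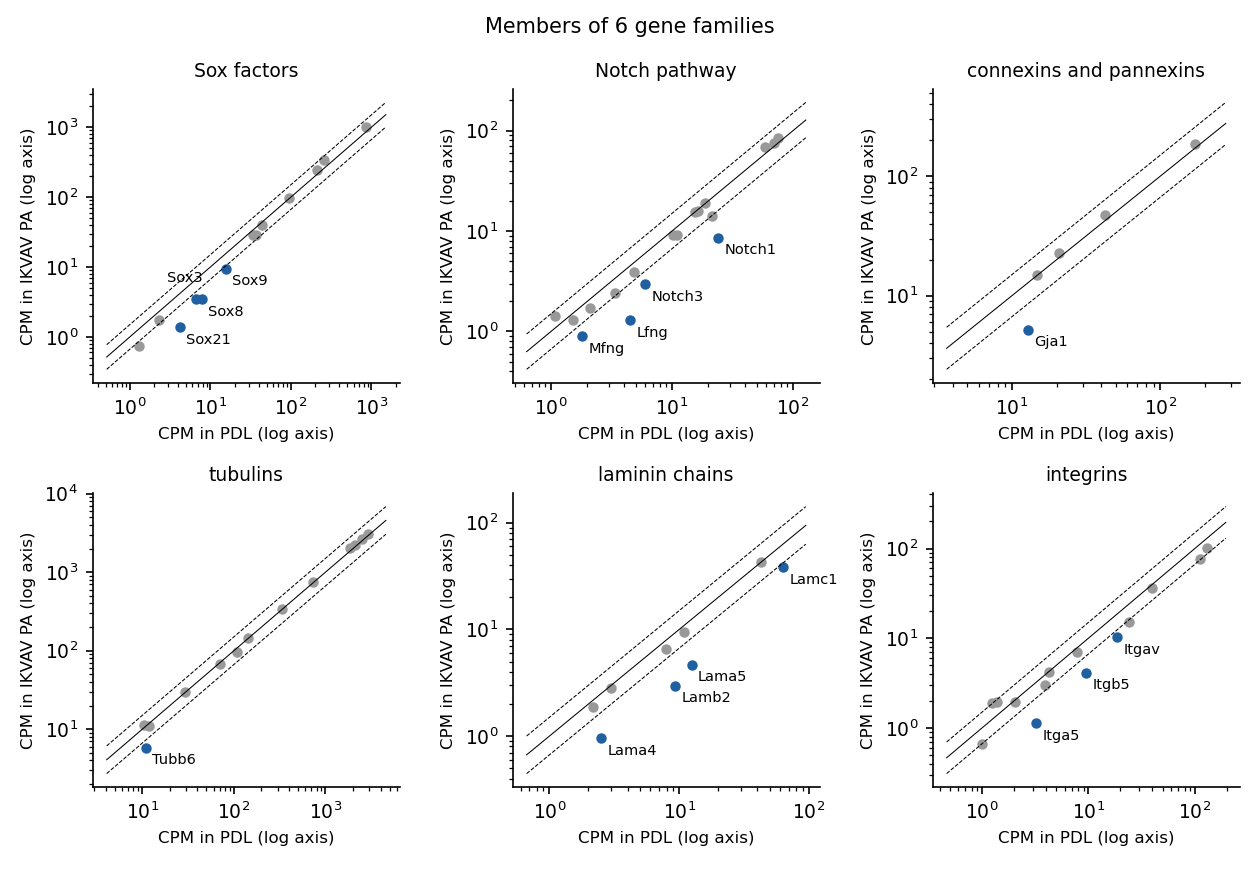
CPM in IKVAV PA (y axis, log) against CPM in PDL (x axis, log) for the measured members of 6 gene families; the solid line marks equal levels, the dashed lines 1.5-fold, and blue points with names are genes called lower. In each family the named members lie below the lines and most others lie between them, and no member of these 6 was called higher.

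Markers of cortical neuron classes gave no calls. Of 10 upper-layer markers, 10 deep-layer markers and 19 interneuron markers none was called, with medians of -0.0078, 0.049 and -0.057. Bcl11b, of subcortical projection neurons, had 307 CPM in IKVAV PA and 287 CPM in PDL, and Gad1, the GABA-synthesising enzyme, had 291 CPM in IKVAV PA and 341 CPM in PDL. The general neuronal genes Map2 (2449.7 CPM in IKVAV PA and 2446 CPM in PDL), Syn1 (490.3 CPM in IKVAV PA and 484 CPM in PDL) and Rbfox3 (115 CPM in IKVAV PA and 98.5 CPM in PDL) had log2 ratios of 0.0022, 0.018 and 0.22, so Rbfox3, the NeuN antigen, was the one of these 3 with the larger difference. Of 5 measured Cajal-Retzius genes 4 had positive log2 ratios, with a median of 0.51, and none was called. Their most abundant member, Reln, had 499.7 CPM in IKVAV PA and 525 CPM in PDL, and Nhlh2, at 3.75 and 2.16 CPM, lay within the bound. No member of the synaptic vesicle list (31 genes), the postsynaptic density list (24) or the synaptic adhesion list (23) was called.

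Small shifts ran through whole neuronal lists without a single call. Of 15 immature neuron genes 14 had a positive log2 ratio (median 0.14), among them Sox11 and Basp1, a growth cone protein (1539 CPM in IKVAV PA and 1347 CPM in PDL). Of 21 calcium channel genes 17 were positive (median 0.15), with Cacna1g, a T-type channel, at 102 and 83.05 CPM and Cacnb3 at 213 and 181 CPM. Of 15 GABA receptor genes 14 were negative (median -0.15), with Gabra4 at 61.6 and 82.04 CPM. Over all genes compared 49.9% were negative. With 1 library for each condition it was not tested whether these shifts exceed the spread between cultures. Of 70 potassium channels Kcnj10 was lower and Kcnk12, a two-pore-domain channel, was higher (8.54 CPM in IKVAV PA and 4.63 CPM in PDL, log2 ratio 0.88, 95% counting interval 0.71 to 1.06). Over all genes compared 3.43% were lower and 0.536% higher.

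**Figure D3:**
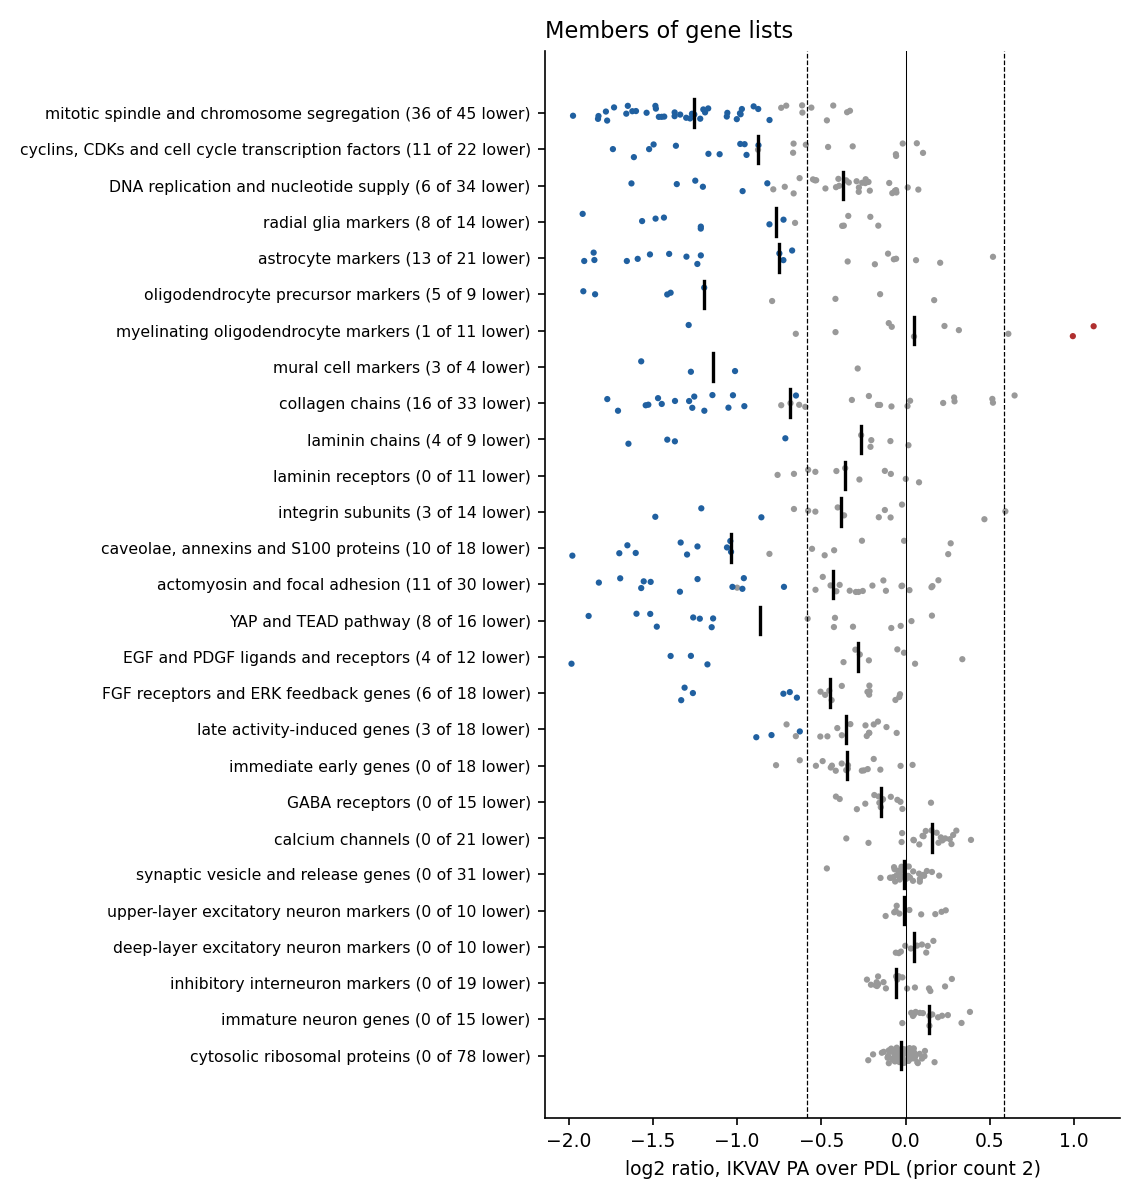
Log2 ratio of IKVAV PA over PDL (x axis, prior count 2) for the measured members of 27 gene lists, 1 point each; black bars are list medians, dashed lines mark 1.5-fold, blue points are genes called lower and red points genes called higher. Cell division, glial precursor, matrix and YAP lists lie to the left of 0, and the cortical layer, synaptic and ribosomal lists lie close to 0.

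Genes induced by neuronal activity had slightly lower levels in IKVAV PA almost without exception. Of 18 immediate early genes 17 had a negative log2 ratio and the median was -0.35, with none called: Fos had 32.3 CPM in IKVAV PA and 49.9 CPM in PDL (log2 ratio -0.63, 95% counting interval -0.69 to -0.57) and Npas4, a factor specific to calcium entry in neurons, had 42.8 CPM in IKVAV PA and 60.2 CPM in PDL. All 18 late activity-induced genes measured were negative, the median was -0.35 and 3 were called (against 3.43% of all genes compared). Those were Bdnf (26.8 CPM in IKVAV PA and 46.6 CPM in PDL; log2 ratio -0.80, 95% counting interval -0.86 to -0.73), the neurotrophin, Nptx2, a pentraxin that clusters glutamate receptors (10.2 CPM in IKVAV PA and 18.9 CPM in PDL), and Scg2, a granin (188 CPM in IKVAV PA and 291 CPM in PDL). Bdnf shares 14.4% of its exonic bases with an overlapping gene. Of 22 neuropeptides and granins 20 were negative, and Cartpt (3.49 CPM in IKVAV PA and 6.60 CPM in PDL) and Crh (2.33 CPM in IKVAV PA and 4.37 CPM in PDL) were called with Scg2. With a 2-fold bound no member of the late activity-induced or the neuropeptide list was called. The same held with an assumed biological coefficient of variation of 0.2. In the third library Fos was at 42.4 CPM, Bdnf at 38.2, Nptx2 at 20.2 and Scg2 at 223. The median of the immediate early list against the same PDL library was 0.074 there.

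**Figure D4:**
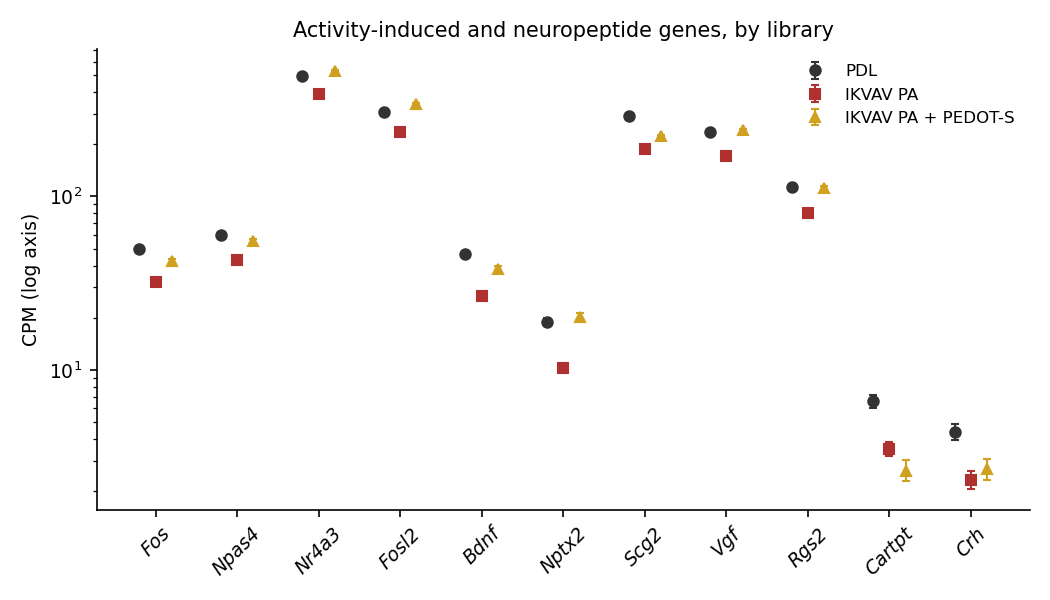
CPM (y axis, log) of 11 activity-induced and neuropeptide genes in each of the 3 libraries; points are single libraries, bars exact 95% Poisson intervals for counting error alone, many smaller than the point. IKVAV PA has the lowest point for all of the genes from Fos to Rgs2, while for Cartpt the IKVAV PA + PEDOT-S library is the lowest.

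Ribosomal, oxidative phosphorylation and lipid synthesis lists gave no calls, and stress, serine and inflammatory lists held a few lower members. None of 78 cytosolic ribosomal protein genes, 94 nuclear oxidative phosphorylation genes, 7 mitochondrially encoded mRNAs, 23 sterol synthesis genes or 12 fatty acid synthesis genes was called, with medians of -0.030, -0.056, -0.073, 0.012 and -0.018. Of 21 glycolysis genes Aldoc alone was called. Of 11 serine and one-carbon genes Phgdh (5.33 CPM in IKVAV PA and 12.1 CPM in PDL), the first enzyme of serine synthesis, Gldc, of glycine cleavage, and Aldh1l1 were lower. No gene of the unfolded protein response was called, though 11 of 13 were negative, with Hspa5 at 325 and 392 CPM. All 11 heat shock and chaperone genes were negative, and the 3 called were Hspb8, its partner Bag3 and Cryab, while the abundant Hspa8 was at 779.9 and 885 CPM. Among 9 inflammatory genes measured, Vcam1 (3.07 CPM in IKVAV PA and 10.1 CPM in PDL) and Csf1, the microglial growth factor (4.86 CPM in IKVAV PA and 15.4 CPM in PDL), and Nfkb2 were lower. The 3 lists serine and one-carbon, heat shock and inflammatory each had 3 lower members of 9 to 11, against 3.43% of all genes compared.

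The higher genes were few, mostly weakly expressed and largely noncoding: 44 of 74 were not protein-coding. Of the 30 protein-coding ones 19 share at most 10% of their exonic bases with another gene. Ordered by the interval bound nearest to no difference, Pla2g3, a secreted phospholipase, led these (1.81 CPM in IKVAV PA and 0.690 CPM in PDL; log2 ratio 1.39, 95% counting interval 0.96 to 1.85), followed by Rtl1, an imprinted retrotransposon-derived gene (4.68 CPM in IKVAV PA and 2.27 CPM in PDL), Mag and Klf2, a Kruppel-like factor (1.40 CPM in IKVAV PA and 0.602 CPM in PDL). Zfp771 was the most abundant of the named ones (25.4 CPM in IKVAV PA and 15.6 CPM in PDL). In the third library Kcnk12 was at 8.55 CPM and Zfp771 at 23.9, near their IKVAV PA levels, while Rtl1 was at 1.80 and Pla2g3 at 0.946, nearer to PDL.

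Several classes of noncoding transcripts leaned higher in IKVAV PA, and processed pseudogenes did not. Of 328 processed pseudogenes 2 were higher and 1 lower, 46.3% had a positive log2 ratio and the median was -0.024. Of 188 provisional TEC gene models (gene models still awaiting experimental evidence, many lying in introns) 17 were higher and none lower, 83.5% had a positive log2 ratio, and the median was 0.29. Antisense genes gave 8 higher and 2 lower of 195, and lincRNAs 7 and 3 of 288, against 30 and 467 of 12452 protein-coding genes. Kcnq1ot1, the antisense RNA of an imprinted domain (chr7:143203458-143296549, mm10), had 54.6 CPM in IKVAV PA and 33.3 CPM in PDL (log2 ratio 0.71, 95% counting interval 0.65 to 0.78) and Rn7sk, which holds back transcription elongation, had 4.21 CPM in IKVAV PA and 2.07 CPM in PDL; both were called higher. The nuclear RNAs Meg3 (1897 CPM in IKVAV PA and 1261 CPM in PDL), Malat1 (544 CPM in IKVAV PA and 382 CPM in PDL) and Miat (307 CPM in IKVAV PA and 216 CPM in PDL) had log2 ratios of 0.59, 0.51 and 0.51, within the bound, and Rian, from the same locus as Meg3, was at 0.030. In the third library Meg3 was at 920.1 CPM, Malat1 at 293 and Kcnq1ot1 at 20.1, each the lowest of the 3. LincRNAs took 0.680% of counts in IKVAV PA and 0.564% in PDL. By GC content the median log2 ratio of protein-coding genes ran from -0.039 in the lowest of 5 equal groups to 0.050 in the highest, and by exonic length from -0.034 in the shortest to 0.015 in the longest. No source used here says whether counting used strand, so antisense genes and their partners may share reads.

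**Figure D5:**
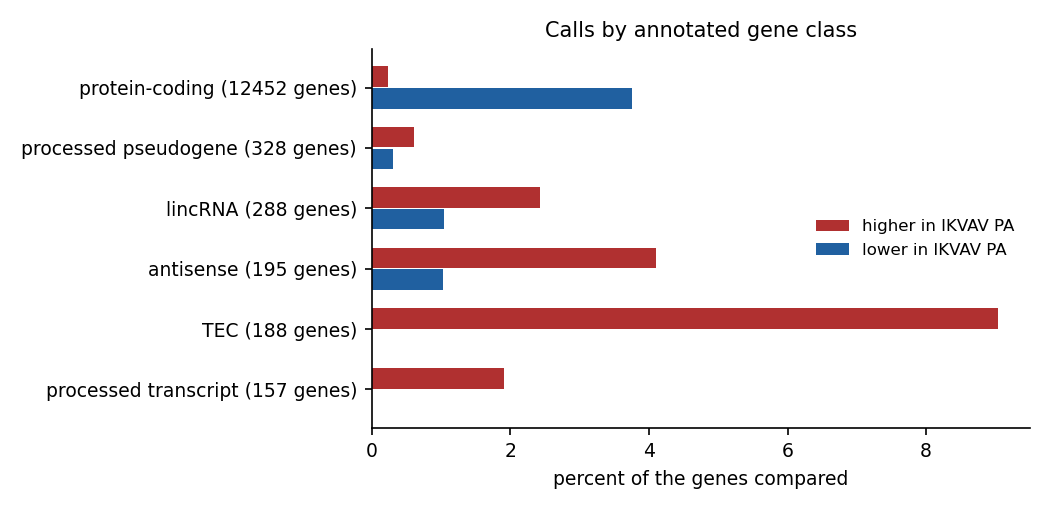
Percent of the genes compared that were called higher (red) or lower (blue) in IKVAV PA, by annotated class, for classes with at least 100 genes; the y axis gives each class with its number of genes. TEC models have the largest higher share, 9.04%, and protein-coding genes the largest lower share, 3.75%.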

How the data were processed

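Each library's deposited table holds raw read counts for each gene. Per the submitters' processing notes the authors used cutadapt 4.2, STAR 2.7.5, HTSeq 2.0.2, DESeq2 1.14.1 and the mm10 build; which annotation, strand setting and filters they chose is not stated in those notes. The labels call the molecule polyA RNA and the kit a total RNA kit. Gene names came from GENCODE M21 (54165 of 54232 identifiers matched; the other 67 held at most 0.0126% of counts).

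Counts were scaled with TMM factors (edgeR 4.0.16, R 4.3.3) over the 3 libraries. Ratios were called beyond 1.5-fold with exact 95% binomial intervals (scipy 1.17.1). The rule was tried on simulated counts that held counting error alone, so that trial does not cover spread between cultures. List medians used a prior count of 2. No count model was run, because each group has 1 library. Overlapping exons above 10% mark uncertain genes.

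The 117 gene lists and their members were chosen with earlier results of these data known, and 1 list was added after the values were seen. Named genes were the 15 highest and 15 lowest coding genes without overlap, members of lists with up to 15 measured, up to 8 of longer lists, and 11 fixed genes. Alternatives covered scaling, filters, the bound, depth, assumed variation and gene class.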

Additional observations from a re-analysis of the deposited data

How the results depend on the processing

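No paired analysis was possible because each condition has 1 library and the groups share a single replicate number. Scaling by DESeq2 size factors, by totals alone or by TMM over both libraries gave 74 to 76 higher and 471 to 477 lower genes, and shifted the median log2 ratio of all genes by -0.0098 to 0.0032. Thinning to the smaller total gave 63 and 455, and leaving out genes with shared exons gave 54 and 434. The counts depended on the level filter and on the bound. With no filter beyond 1 count 484 genes were higher and 846 lower, and with 5 CPM 17 and 227. With a 2-fold bound 8 were higher and 219 lower, and with no interval 280 and 716. With an assumed biological coefficient of variation of 0.2, 8 were higher and 150 lower. Among protein-coding genes alone 30 were higher. Higher genes that are not protein-coding, 44 by the rule used, numbered 358 with no filter, 6 with 5 CPM, 6 with a 2-fold bound, 161 with no interval and 7 with the assumed variation. Lists with a median more than 1.5-fold lower, 13 of 109, numbered 10 to 16 over 6 alternatives, and no median beyond 1.5-fold changed sign. The endothelial, insulin-like growth factor, metalloproteinase and tubulin lists lost all their calls with a 2-fold bound. They also lost all of them with the assumed variation. Of 272 named or called genes tried under 3 alternatives, thinning took 18 below the bound, Mobp, Bcas1, Mfng, Etv5 and Gas1 among them, and the scalings none. The intervals cover counting error only, and PCR reads are not independent molecules.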

Other observations

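Mitochondrial fatty acid oxidation, a list added after the values were seen, had 5 of 17 measured genes lower in IKVAV PA, none higher and a median log2 ratio of -0.18. The lower share over all genes compared was 3.43%. The lower members were Cpt1a, the gatekeeper of fatty acid entry into mitochondria (1.28 CPM in IKVAV PA and 4.02 CPM in PDL; log2 ratio -1.65, 95% counting interval -1.93 to -1.37), Acadl (3.05 CPM in IKVAV PA and 6.15 CPM in PDL), Acads, Decr1 (0.730 CPM in IKVAV PA and 1.64 CPM in PDL) and Eci1. Cpt1c, the brain paralogue of Cpt1a, had 27.8 CPM in IKVAV PA and 24.1 CPM in PDL, and Hadha, of the trifunctional protein, had 38.9 CPM in IKVAV PA and 43.3 CPM in PDL.

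Several genes outside the naming rule were singled out after their values were seen. The most abundant gene called higher was Gm23935, annotated as a microRNA gene (81.9 CPM in IKVAV PA and 16.2 CPM in PDL; log2 ratio 2.34, 95% counting interval 2.26 to 2.43), at 91.9 CPM in the third library. Gnas, an imprinted G protein gene with overlapping transcripts, had 78.9 CPM in IKVAV PA and 33.4 CPM in PDL and shares 21.96% of its exonic bases with other genes. Adnp, at 9.96 and 2.81 CPM, shares 82.1% of its own, so its value is uncertain. The male-specific Ddx3y had 37.7 CPM in IKVAV PA and 41.97 CPM in PDL and Xist, of females, had 742 CPM in IKVAV PA and 621 CPM in PDL, so both libraries held RNA of both sexes and neither gene was called.

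Several matrix and contractile genes were at still lower levels in the third library: Lox was at 1.16 CPM, Col1a1 at 5.61 and Acta2 at 9.996, each below its IKVAV PA level of 2.82, 14.5 and 26.4. Mki67 was at 12.7 CPM there and 12.7 in IKVAV PA. These side-by-side values come from single libraries, and no test was made between them.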
